A study of Mus musculus with 12 samples.

Results

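The genes described here were those whose mRNA was lower after Ncoa4 siRNA in HT22 cells both at normal iron and under iron chelation. HT22 cells are a permanently growing line that stems from the hippocampus of the mouse. RNA was sequenced in 12 libraries, 3 biological replicates in each of 4 groups. Cells received a negative control siRNA (siControl) or an siRNA against Ncoa4 (siNCOA4), each at normal iron or with deferoxamine (DFO), an iron chelator, at 100 µM for 24 h. All groups were transfected, and 1 Ncoa4 siRNA product was used throughout, so that loss of NCOA4 and other actions of that siRNA cannot be told apart in any comparison below. Expression was deposited as FPKM, the number of sequenced fragments of a gene scaled by its length and by the size of its library. Whether library sizes had been adjusted between libraries was not stated.

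A gene was a member if its mean siControl FPKM was at least 2, if every siNCOA4 value lay below every siControl value, if every siNCOA4+DFO value lay below every siControl+DFO value, and if the knockdown ratio was at most 0.67 in both pairs. The knockdown ratio is the mean FPKM with Ncoa4 siRNA divided by the mean with control siRNA. Histone, small nucleolar RNA and microRNA names were left out. Of 24343 genes, 9991 reached the expression level. At normal iron 2011 of these did not overlap in the lower direction (20.1% of 9991), with DFO 2235 did not (22.4%), and for 916 both held (9.17%). The ratio limit kept 183 genes, 12 of which were histone genes left out by name, and 171 members remained. The members were thus chosen by their FPKM in both knockdown comparisons, and those values are given as a description without a test.

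NCOA4 is an autophagic cargo receptor that binds the iron storage protein ferritin and carries it to the lysosome, where ferritin is degraded and its iron released. It was first described as a coactivator of nuclear receptors. An siRNA is loaded into an Argonaute protein and directs cleavage of the transcript that it matches along its length. As background, small RNAs loaded in this way can also lower transcripts that pair only with their seed, bases 2 to 8, usually through sites in the 3′ UTR.

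A short sequence was shared by many members and is shown first, since the rule did not use sequence. Of 169 members with an annotated 3′ UTR, 62 (36.7%) held the heptamer GAATGCC on the mRNA strand, whereas 735 of the 10997 other tested genes with a 3′ UTR did (6.68%). Given their 3′ UTR lengths, 12.5 members were to be expected to hold it, so that the observed number was 4.97 times as high. The heptamer was found by ranking 13549 heptamers and stood first, so it is given as a description without a test. The windows below, from GENCODE transcripts on GRCm38, show it in members with low knockdown ratios, in 3′ UTRs except for Ncoa4. They read 5′ to 3′ along the mRNA, and the capitals mark the heptamer.
Cfl2, first site: tctgtattcccaagGAATGCCttcctgtct
Cfl2, next site: agggtaagctaactGAATGCCttgaaaata
Cfl2, last site: taatcccttataaaGAATGCCaattaagtt
R3hdm4: cgctttcagaatttGAATGCCaccccttcc
Kdelr3: tgaggtgctaaataGAATGCCtaatacact
Clcn5: aagtgtttacagaaGAATGCCaataaatgc
Prkar2b: acggaacaggaaatGAATGCCtcggctatg
Pdhb: aaggggcaagataaGAATGCCcccacagaa
Gys1: gtgtcccctctaggGAATGCCtccattgag
Axl: gtgcgatgcactggGAATGCCtgctttcct
Ncoa4, exon 3: taagtcgccacctgGAATGCCttcggagcc
Ncoa4, exon 8: aaaggacaagaatgGAATGCCtatggaacc

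The Cfl2 windows lay in the last of 4 exons on the minus strand, at chr12:54860913-54860942, chr12:54860790-54860819 and chr12:54860580-54860609. Those of R3hdm4 (chr10:79910946-79910975), Prkar2b (chr12:31958553-31958582), Pdhb (chr14:8166078-8166107), Axl (chr7:25757405-25757434) and Clcn5 (chrX:7156839-7156868) were also on the minus strand and in the last exon. Kdelr3 (chr15:79527615-79527644) and Gys1 (chr7:45456249-45456278) were on the plus strand, likewise in the last exon. In Ncoa4 the heptamer was absent from the 3′ UTR and occurred in the coding sequence, in exons 3 and 8 of 10 on the plus strand, at chr14:32172328-32172357 and chr14:32176565-32176594. The sequence of the siRNA was not analysed here, and whether it pairs with any of these sites was not tested.

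Relative depth, estimated from the FPKM that 1 read was worth in low genes, was 1 to 1.25 in siControl, 1.26 to 1.41 in siNCOA4, 1.06 to 1.25 in siControl+DFO and 0.928 to 1.20 in siNCOA4+DFO relative to siControl replicate 1. At normal iron every siNCOA4 estimate thus lay above every siControl estimate. The gap between siNCOA4 replicate 2 (1.26) and siControl replicate 2 (1.25) was small, and no error was attached to these estimates. If library sizes had been adjusted, these values reflect the adjusted sizes and not the number of reads alone. The number of genes above 0 was 12643 to 12804 in siControl, 13066 to 13120 in siNCOA4, 13548 to 13618 in siControl+DFO and 13454 to 14024 in siNCOA4+DFO, so that it also moved with the groups. The part of both in the members' differences was not tested. Replicates of a group correlated across genes at 0.926 to 0.955 on the log2 scale. The labelled neuronal identity was weakly reflected in defining markers, as 2 of 13 neuron markers (Tubb3 and Syn1) had a mean FPKM of at least 1 and Gad1 and Chat were listed at 0 in every library. That level was reached by 2 of 6 astrocyte markers (Aldh1l1 and Slc1a3), 1 of 6 for microglia (Tmem119) and 0 of 5 for endothelium. By contrast, 9 of 10 fibroblast or mesenchyme markers reached it. Their summed FPKM was 3399 to 3892 in siControl, 2503 to 2753 in siNCOA4, 2054 to 2178 in siControl+DFO and 1881 to 2078 in siNCOA4+DFO. This sum was lower with DFO under each siRNA and lower with Ncoa4 siRNA at normal iron, whereas with DFO the siRNA groups overlapped. Its part in the members' differences was not tested. In such bulk samples fewer cells of a type and less RNA per cell cannot be told apart.

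Ncoa4, the gene targeted, was the most strongly lowered member. Its FPKM was 6.46, 6.19 and 6.02 in siControl and 0.770, 0.952 and 0.891 in siNCOA4. With DFO it was 8.70, 8.31 and 7.52 in siControl and 0.850, 1.29 and 1.57 in siNCOA4. Every library that received Ncoa4 siRNA lay far below every library that did not, and the knockdown ratios were 0.140 at normal iron and 0.151 with DFO. Identical 75-base stretches with another annotated gene, mostly Gm6768, made up 41.4% of the Ncoa4 transcript, so reads from such a copy could not be told apart there.

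Over the 171 members the knockdown ratio had a median of 0.517 at normal iron (0.140 to 0.6697) and 0.564 with DFO (0.151 to 0.6696). Across the 9991 genes of at least the same level the medians were 0.986 and 0.990. The ratio was lower at normal iron for 101 members and lower with DFO for 70. In 32 members both ratios were at most 0.5. The members covered a wide range of expression, with a median siControl FPKM of 18.6, 12 members at 100 or more and 47 below 10. The difference between both knockdown effects was not tested, because both had chosen the members.

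**Figure D1:**
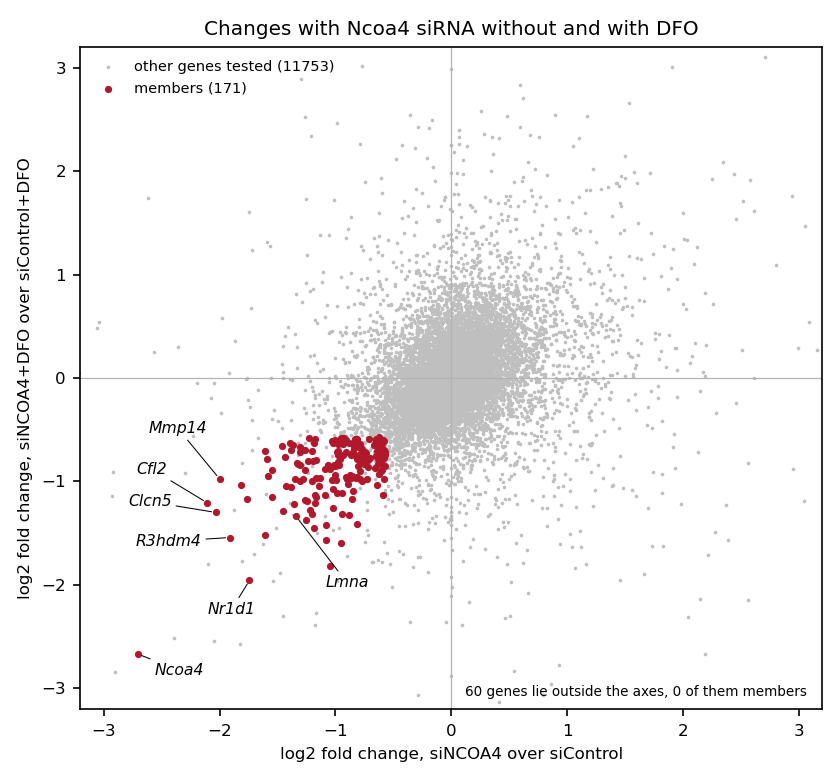
Log2 fold change with Ncoa4 siRNA at normal iron (horizontal axis) and with DFO (vertical axis), on log2(FPKM + 0.1), for all 11924 genes tested, with the 171 members in red. The members fill the lower left corner that the rule cut out, Ncoa4 lies at its end, and 60 other genes lie outside the axes.

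Cfl2, R3hdm4 and Mmp14 were next to Ncoa4 in the size of the fall at normal iron, together with Clcn5. Cfl2 encodes muscle cofilin, which severs and depolymerizes actin filaments. Its FPKM was 25.4, 28.1 and 29.4 in siControl against 7.79, 7.51 and 4.31 in siNCOA4, and 28.4, 26.4 and 24.8 in siControl+DFO against 10.96, 12.1 and 11.2 in siNCOA4+DFO. Both control groups covered a similar range, while the siNCOA4 values were all lower at normal iron than with DFO. The ratios were 0.237 and 0.431. The other proteins of this family are cofilin 1 (Cfl1) and destrin (Dstn), which are not members. Cfl1 changed by -0.23 (standard error 0.09, adjusted p = 0.125, limma) at normal iron and Dstn by 0.22 (standard error 0.08, adjusted p = 0.096, limma) on the log2 scale, neither of which had an adjusted p below 0.05.

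Mmp14 encodes a membrane-anchored matrix metalloproteinase that cleaves collagen at the cell surface. Its FPKM was 152, 133 and 132 in siControl and 36.9, 33.1 and 33.9 in siNCOA4. With DFO it was 55.3, 63.0 and 66.6 in siControl and 27.7, 31.4 and 34.9 in siNCOA4. The groups with Ncoa4 siRNA overlapped each other, whereas siControl+DFO lay below siControl, and the knockdown ratio was therefore 0.249 at normal iron and 0.509 with DFO. Its 3′ UTR did not hold the heptamer. The other membrane-type metalloproteinases Mmp15, Mmp16, Mmp17, Mmp24 and Mmp25 were listed at an FPKM of 0 to 0.487 in all 12 libraries.

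R3hdm4 encodes a protein with an R3H domain, a fold that binds single-stranded nucleic acids. Its FPKM was 25.7, 33.5 and 26.5 in siControl and 8.50, 7.87 and 6.24 in siNCOA4, then 16.8, 20.2 and 21.2 in siControl+DFO and 6.33, 6.83 and 6.53 in siNCOA4+DFO. The knockdown ratios were 0.263 and 0.339. R3hdm1 and R3hdm2, which encode related proteins, were at 19.6 ± 0.88 and 23.2 ± 0.69 FPKM in siControl (SD, n = 3) and at 17.97 and 26.6 in siNCOA4, and neither passed the threshold at normal iron (adjusted p = 0.379 and 0.169, limma). With DFO R3hdm1 was lower by the adjusted p, at -0.29 on the log2 scale (standard error 0.08, adjusted p = 0.0308, limma), whereas R3hdm2 did not pass at 0.11 (adjusted p = 0.396, limma).

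Among the remaining members of the 20 lowest by the larger of their ratios were several enzymes of metabolism, set together after their values had been seen, as were the groups in the following paragraphs on these 20. Akr1a1 (aldehyde reductase) was at 225 ± 10.9 FPKM in siControl and 87.6 ± 3.29 in siNCOA4. Pdhb, a subunit of pyruvate dehydrogenase, went from 48.5 ± 6.12 to 21.2 ± 5.56 FPKM. For Gys1, muscle glycogen synthase, the values were 28.7, 23.4 and 23.9 in siControl and 13.6, 9.30 and 10.3 in siNCOA4. With DFO Gys1 was at 67.6, 69.3 and 70.4 in siControl and at 28.6, 26.1 and 28.7 in siNCOA4. Thus Gys1 in siNCOA4+DFO reached the level of siControl without DFO, and its ratios were 0.437 and 0.403. Esd, an esterase that acts in formaldehyde detoxification, had ratios of 0.439 and 0.368, and Cox7b, a subunit of cytochrome c oxidase, of 0.434 and 0.456. Cox7b was uneven in siControl, at 103, 169 and 154 FPKM. Pgk1, a glycolytic enzyme on the housekeeping list, was a member but not among the 20. It had ratios of 0.652 and 0.624, and 67.5% of its transcript was shared with other annotated genes.

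Lmna and 4 genes of transcription factors were also among the 20. Lmna, which encodes the A-type lamins of the nuclear envelope, was at 368, 351 and 357 FPKM in siControl and at 148, 136 and 141 in siNCOA4. With DFO it was at 263, 284 and 259 in siControl and at 109, 110 and 101 in siNCOA4, and both ratios were close to each other, 0.395 and 0.396. Sox9, a factor of neural progenitors and cartilage, was at 40.9, 36.8 and 37.3 FPKM in siControl and at 17.8, 15.9 and 17.3 in siNCOA4. Its values with DFO were 59.99, 63.1 and 60.6 in siControl and 32.7, 28.6 and 22.3 in siNCOA4. The clock repressor Nr1d1 (REV-ERBα) had ratios of 0.286 and 0.260, the forkhead factor Foxc2 of 0.402 and 0.388, and the cell cycle factor Mybl2 of 0.415 and 0.440. None of Lmna, Sox9, Nr1d1, Foxc2 and Mybl2 held the heptamer in the annotated 3′ UTR, and Mybl2 alone among them held it in the coding sequence.

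The remaining genes among the 20 were of several kinds. Clcn5, an endosomal chloride and proton exchanger, was at 20.05, 17.0 and 18.2 FPKM in siControl and at 3.88, 5.21 and 4.23 in siNCOA4. With DFO it was at 30.7, 29.5 and 32.4 in siControl and at 13.98, 11.4 and 12.2 in siNCOA4, giving ratios of 0.241 and 0.406. Kdelr3, a receptor that returns proteins to the endoplasmic reticulum, had ratios of 0.326 and 0.342. Prkar2b, a regulatory subunit of protein kinase A, was at 35.3, 29.3 and 32.9 FPKM in siControl and at 12.6, 10.2 and 10.3 in siNCOA4. Its values with DFO were 16.2, 15.001 and 15.6 in siControl and 5.497, 6.43 and 9.54 in siNCOA4, with ratios of 0.340 and 0.458. S100a11, a calcium-binding protein, had ratios of 0.364 and 0.409, the receptor-associated protein Strap of 0.442 and 0.432, Kctd15 of 0.408 and 0.445, and Apcdd1, an inhibitor of Wnt signaling, of 0.292 and 0.467.

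**Figure D2:**
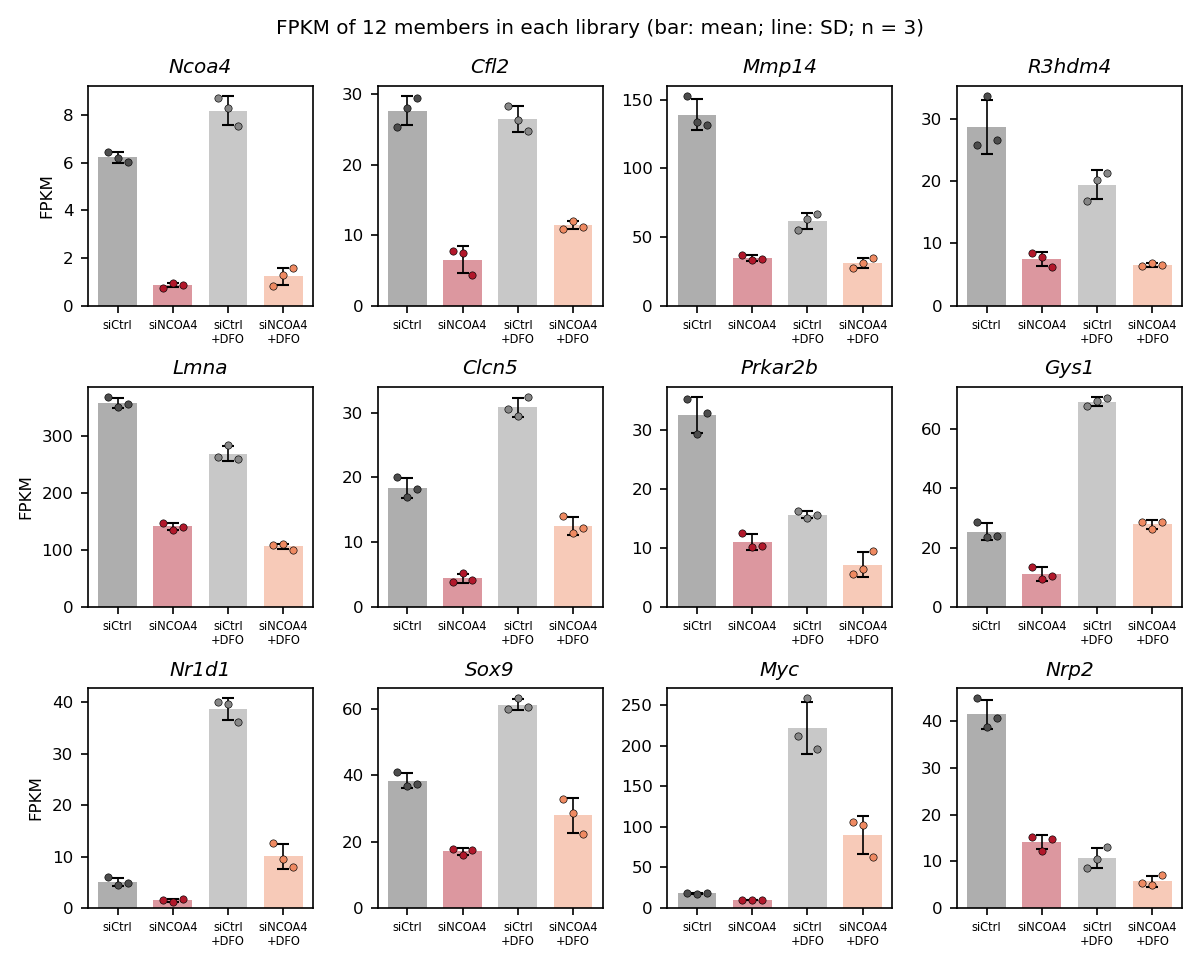
FPKM of 12 members in the 12 libraries, with 1 panel per gene, bars for group means, lines for the SD (n = 3) and points for single libraries. In each panel the siNCOA4 points lie below the control siRNA points of the same iron condition, while the effect of DFO differs from gene to gene.

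Each pathway list held 0 to 3 members, where 171 of all 11924 genes tested were members. The lists were chosen with earlier results of these data known, so these counts are a description. On the integrin and focal adhesion list 3 of 22 genes, 19 of which were tested, were members. These were the adaptor Pxn (ratios 0.575 and 0.639), the actin assembly factor Vasp (0.575 and 0.622) and Tns3 (0.467 and 0.455). Of the 16 tested genes on that list that were not members, 4 were lower and 1 higher at normal iron by an adjusted p below 0.05 in limma, and 7 were lower and 0 higher with DFO. Of all 11924 genes tested, 7.21% were lower and 4.52% higher at normal iron, and 10.2% and 6.22% with DFO. The median log2 fold change of the whole list, members included, was -0.23 at normal iron and -0.34 with DFO, beside 0.00 and -0.01 over all genes tested. Ctgf and the receptor kinase Axl were the members among 15 targets of YAP and TEAD, with Axl at 78.6, 76.6 and 70.7 FPKM in siControl and at 30.5, 27.5 and 26.0 in siNCOA4. Of the 12 genes on the cell cycle and growth list, Ccnd3, Ccne1 and Myc were members. The median of that list, members included, was -0.24 at normal iron and -0.31 with DFO. For the 9 genes that were not members it was -0.02 and -0.21. By the adjusted p, 1 of these 9 was lower and 2 higher at normal iron, and 2 were lower and 0 higher with DFO. Nrp2, a co-receptor for semaphorins, was the member among 19 neuron development genes, and the list's medians, Nrp2 included, were -0.08 and -0.03.

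On the list of iron handling and ferritinophagy, Ncoa4 was the member among 17 genes tested. The list's median, Ncoa4 included, was -0.17 at normal iron and -0.15 with DFO. Of the other 16 genes, by the adjusted p, 1 was lower at normal iron (Pcbp2) and 4 with DFO (Pcbp1, Pcbp2, Slc11a2 and the transferrin receptor Tfrc), while 0 were higher in either comparison. The heavy chain of ferritin, Fth1, changed by -0.17 at normal iron (adjusted p = 0.326, limma) and by -0.15 with DFO (adjusted p = 0.326, limma). Cfl2 was the member among 20 tested actin depolymerizing factors and regulators, and the median of that list, Cfl2 included, was -0.10 and -0.14. Mmp14 was the member among 21 metalloproteinases and partners, R3hdm4 among 5 genes of its domain family, and Ncoa4 among 16 measured autophagy cargo receptors and among 12 coactivators and corepressors of nuclear receptors. The lists of contractile actin and myosin, extracellular matrix, TGF-beta and growth factor receptors and endocytosis held no member. No RNA interference gene was a member either, although Ago2, which encodes the Argonaute that cleaves siRNA targets, lay just outside the limit.

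At the ratio limit of 0.67, the members just inside were Pitpnb (larger ratio 0.6692), Qk (0.6696) and Snrpa1 (0.6697). Just outside were 1190002N15Rik (0.6702), Ago2 (0.6704) and Prps2 (0.6707). Ago2 was at 39.8, 30.9 and 30.7 FPKM in siControl and at 23.4, 21.1 and 21.4 in siNCOA4, and its ratios were 0.650 and 0.6704.

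The members were also set beside the other tested genes for length, exon number, GC content and chromosome. Their median 3′ UTR length was 1318 bases against 1163 in the other tested genes, the coding length 1251 against 1389 bases, and the GC content of the coding sequence 55.1% against 52.7%. The median number of exons was 8 against 9. They lay on all of chromosomes 1 to 19 and X, with 4 members on chromosome 19 and 14 on chromosome 10, or 0.939% and 2.49% of the tested genes there. In 20 of 169 members over 10% of the transcript's 75-base stretches occurred in another annotated gene, so that their values were uncertain. The highest shares were in Scamp4 (96.2%) and Sept5 (85.8%).

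The heptamer was examined further because it set the members apart more than these features. The next heptamers in rank were AATGCCA, in 61 members, and AATGCCT, in 53, both of which share 6 bases with GAATGCC. The excess over expectation, in units of the square root of the expected number, was 14.02 for GAATGCC and at most 5.67 outside the 3 leading heptamers. That value was for AGAATGC, which also shares 6 bases with GAATGCC. Further down the ranking, TCTCGCC was in 14 members, where 4.40 were expected by length. The share of members holding GAATGCC was higher than in other genes at each 3′ UTR length. It was 21.4% against 1.04% below 500 bases, 44.1% against 2.40% from 500 to 1000, 31.6% against 6.10% from 1000 to 2000, 42.5% against 11.4% from 2000 to 4000, and 60% against 24.1% above.

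The share also varied among the members by the size of the fall, a difference that was not tested. The heptamer was found in these members, and the split uses the ratios that chose them, so these shares are a description. Their intervals cover counting error only and take no account of that choice. Among the 32 members with both ratios at most 0.5, 18 held the heptamer (56.3%, exact 95% interval 37.7 to 73.6%). Among the other 137 members with a 3′ UTR, 44 did (32.1%, exact 95% interval 24.4 to 40.6%). Of 47 genes with a 3′ UTR that were raised by the mirror image of the rule, 0 did (exact 95% interval up to 7.55%). There were 0.267 sites per kilobase of 3′ UTR in the members and 0.0440 in the other genes. In 52 members there was 1 site, in 8 there were 2, Cfl2 had 3 and Ccny had 4. The coding sequence held it in another 34 members, so that 96 of 169 (56.8%) had it in the 3′ UTR or coding sequence, against 18.2% of other genes.

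**Figure D3:**
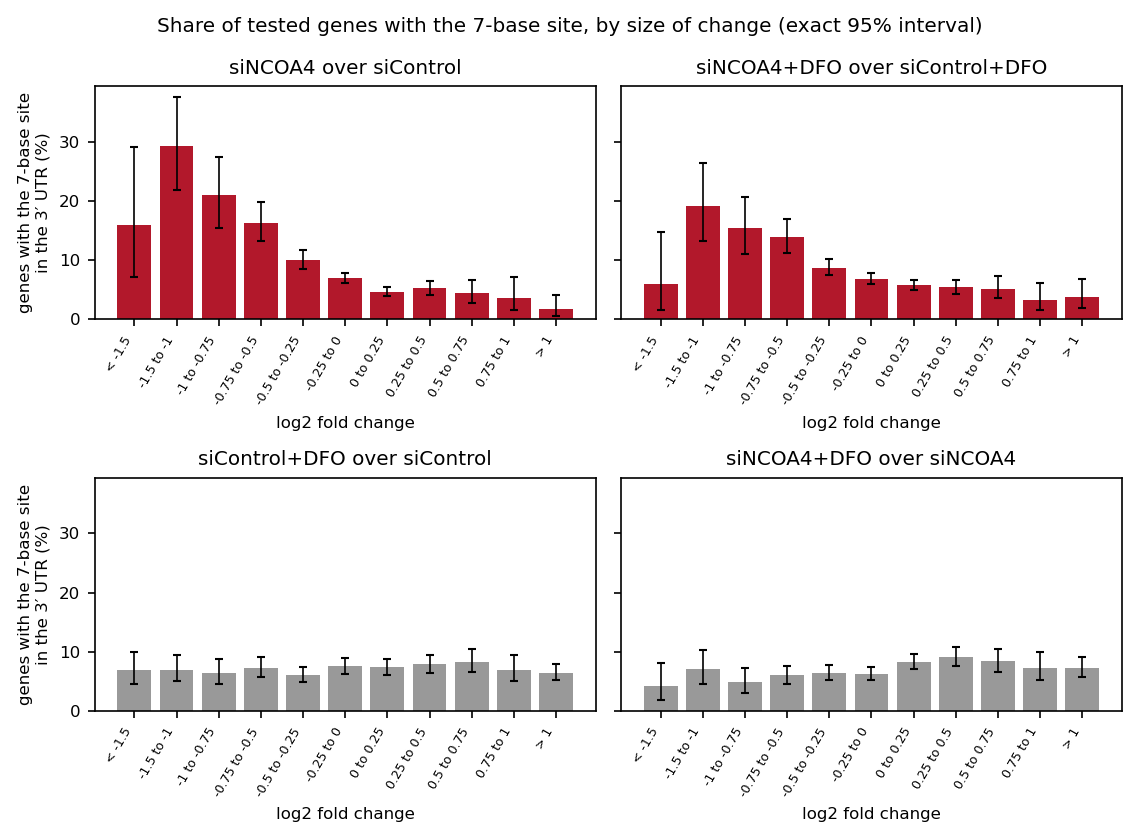
Share of tested genes with GAATGCC in the 3′ UTR (vertical axis, percent, with exact 95% intervals) by log2 fold change (horizontal axis) in each of 4 comparisons. With Ncoa4 siRNA the share is 4.69% just above 0 and 6.97% just below it at normal iron, 29.3% between -1.5 and -1 and 16% below -1.5. With DFO present in both groups these values are 5.82%, 6.84%, 19.2% and 6.06%.

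Across all tested genes, members included, the share with the heptamer varied with the knockdown change. The heptamer was found in the members, which this same change had chosen, so that the values partly restate that choice and are a description. At normal iron it was 1.80% among genes with a log2 fold change above 1, 4.69% from 0 to 0.25, 10.0% from -0.5 to -0.25, 20.9% from -1 to -0.75 and 29.3% from -1.5 to -1. Below -1.5 it was 16% of 50 genes. With DFO present in both groups, it was 3.86% above 1, 5.82% from 0 to 0.25 and 19.2% from -1.5 to -1, and below -1.5 it was 6.06% of 66 genes. In the comparison of siControl+DFO with siControl the share stayed between 6.14% and 8.32% in every class of change, and in that of siNCOA4+DFO with siNCOA4 between 4.23% and 9.11%.

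Genes that were not members also differed by site. Those with the octamer GAATGCCA in the 3′ UTR (291 genes) had a median log2 fold change of -0.16 at normal iron, and 69.8% of them were below 0. For genes with GAATGCC alone (444) the median was -0.09, for those with AATGCCA but not GAATGCC (904) it was -0.04, and for those with the hexamer AATGCC alone (1264) it was 0.01. Genes with none of these (8094) had a median of 0.03, and 45.9% of them were below 0. With DFO the medians were -0.13, -0.06, -0.05, 0.00 and 0.01 in the same order. Only the members were left out of these medians, and genes that fell strongly but did not meet the whole rule stayed in. The median 3′ UTR length of these classes was 2750, 2728, 2416.5, 2115.5 and 857 bases, again in the same order, and the medians were not matched for length. Genes are not independent replicates, and no test was made on these values.

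**Figure D4:**
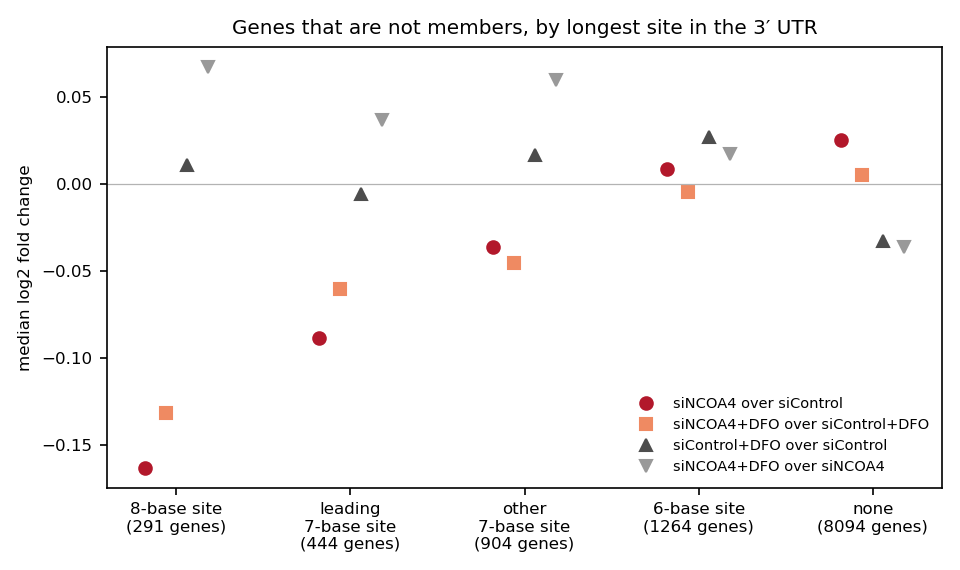
Median log2 fold change (vertical axis) of genes that are not members, by the longest site in the 3′ UTR (horizontal axis), in 4 comparisons. The medians of both Ncoa4 siRNA comparisons run from -0.16 and -0.13 for the 8-base site to 0.03 and 0.01 for genes without a site, while both DFO comparisons stay between -0.04 and 0.07.

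No microRNA was matched to the heptamer. Among 1738 mature mouse microRNAs of RefSeq, 0 had bases 2 to 8 complementary to GAATGCC and 0 had bases 2 to 7 complementary to AATGCC.

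The response of the members to DFO was not used by the rule, although the comparisons share libraries with it, and was tested with limma. Called here means a fold change above 2 with an adjusted p below 0.05. With control siRNA, 30 of 171 members were called higher after DFO (17.5%) and 16 lower (9.36%), where 11.1% and 7.76% of all genes tested were called. With Ncoa4 siRNA, 32 were called higher (18.7%) and 8 lower (4.68%), against 7.59% and 3.83% of all genes. By the adjusted p alone, 64 members were higher (37.4%) and 45 lower (26.3%) with control siRNA, against 27.7% and 25.7% of all genes, and 73 (42.7%) and 38 (22.2%) with Ncoa4 siRNA, against 23.1% and 19.6%. The median log2 fold change of the members was 0.19 with control siRNA and 0.23 with Ncoa4 siRNA, beside -0.01 and 0.00 over all genes tested. Of the members, 29 were called higher under both siRNAs, 6 were called lower under both, and 0 were called in opposite directions. Calls under both siRNAs were not counted over all genes tested, so whether these numbers are particular to the members was not examined. The lower level after Ncoa4 siRNA was set by the rule, whereas the members did not all share a direction with DFO. Their log2 fold change was above 0 in 101 members with control siRNA and in 105 with Ncoa4 siRNA.

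Egr1, Myc and Dusp4 rose most with DFO under control siRNA among the members. Egr1, a zinc finger factor induced by growth factors, was at 8.49, 6.85 and 8.40 FPKM in siControl and at 120, 125 and 109 in siControl+DFO. With Ncoa4 siRNA it was at 5.64, 3.803 and 4.04 without DFO and at 54.9, 48.2 and 32.6 with it. Both rises left no overlap between groups, and the log2 fold changes were 3.89 and 3.29 (standard error 0.19, adjusted p = 1.35e-08 and 1.34e-07, limma). Myc went from 18.3, 17.4 and 18.1 to 212, 258 and 196 FPKM with control siRNA and from 9.43, 9.42 and 10.2 to 106, 102 and 63.2 with Ncoa4 siRNA. Its log2 fold changes were 3.61 and 3.17 (standard error 0.16, adjusted p = 8.68e-09 and 6.47e-08, limma). The Myc values after DFO were therefore spread more widely than before it, and among the siNCOA4+DFO libraries replicate 3 was lowest for both Egr1 and Myc.

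Dusp4, a phosphatase that inactivates MAP kinases, rose by 3.29 and 3.46 on the log2 scale (standard error 0.13, adjusted p = 3.08e-09 and 1.6e-08, limma). Dusp6, Spry2 and Etv5, which are induced by the same kinase pathway, were also called higher under both siRNAs, at 2.42 and 2.34, 1.57 and 1.38, and 2.19 and 3.09. These genes were grouped after their values had been seen. Rasl11a, a small GTPase, rose by 2.64 and 3.201 (standard error 0.26, adjusted p = 4.12e-06 and 1.98e-06, limma).

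Some other members that rose belong to the clock, to glucose and lipid storage and to the response to low oxygen. These groups were again formed after the values had been seen. Nr1d1 was at 5.99, 4.47 and 4.90 FPKM in siControl and at 40.0, 39.7 and 36.3 in siControl+DFO. With Ncoa4 siRNA it went from 1.53, 1.19 and 1.68 to 12.7, 9.56 and 7.94 FPKM. The log2 fold changes were 2.90 and 2.69 (standard error 0.18, adjusted p = 1.03e-07 and 4.71e-07, limma). Bhlhe40, another repressor of the clock, was called higher under both siRNAs, at 1.31 and 1.17. Gys1 rose by 1.45 and 1.34 (standard error 0.13, adjusted p = 1.46e-06 and 5.74e-06, limma). Ndrg1 rose by 3.16 and 2.84, the lipid droplet protein Hilpda by 2.19 and 1.64, and the forkhead factor Foxo3 by 2.41 and 2.30. Foxc2 rose by 1.43 and 1.31 and Kctd15 by 1.39 and 1.48. Not all members with such roles were called higher. Nr1d2, a relative of Nr1d1, changed by 0.23 and 0.36 and was not called. Angptl4, which acts in lipid metabolism, changed by -0.42 and -0.72 and was not called either.

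The 6 members called lower with DFO under both siRNAs were Nrp2, Cdh1, Eva1b, Serpinb9, Akr1c14 and Arxes2. Nrp2, the semaphorin co-receptor, was at 44.8, 38.8 and 40.6 FPKM in siControl and at 8.60, 10.4 and 13.0 in siControl+DFO. With Ncoa4 siRNA it was at 15.3, 12.3 and 14.8 and then at 5.28, 4.84 and 6.99. Its log2 fold changes were -1.97 and -1.30 (standard error 0.17, adjusted p = 1.16e-06 and 5.55e-05, limma). Cdh1, the epithelial cadherin, was low at 4.75, 4.09 and 4.84 FPKM in siControl and 1.30, 1.47 and 1.496 in siControl+DFO, and changed by -1.61 and -1.71. Eva1b changed by -2.14 and -1.34, the granzyme inhibitor Serpinb9 by -1.87 and -1.06, the steroid dehydrogenase Akr1c14 by -1.68 and -1.58, and Arxes2 by -1.85 and -1.13. With Ncoa4 siRNA some of the calls rested on single libraries of low FPKM. Serpinb9 stood at -0.90 without siNCOA4 replicate 1, at -0.92 without siNCOA4+DFO replicate 1 and at -0.59 with a pseudocount of 1, and was then not called. Akr1c14 stood at -0.95 without siNCOA4+DFO replicate 2 and at -0.997 with a pseudocount of 1, just short of the fold threshold.

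Mmp14 fell by 1.17 with DFO under control siRNA (standard error 0.10, adjusted p = 1.38e-06, limma) and was not called under Ncoa4 siRNA, at -0.15 (adjusted p = 0.26, limma). Likewise Prkar2b changed by -1.05 and -0.65 and Apcdd1 by -1.57 and -0.97, each called under control siRNA. Without siControl replicate 1 Prkar2b stood at -0.99 under control siRNA and was not called, and without siNCOA4+DFO replicate 3 Apcdd1 stood at -1.28 under Ncoa4 siRNA and was called. In the other direction, Clcn5 was called under Ncoa4 siRNA at 1.48 (standard error 0.12, adjusted p = 2.31e-06, limma) and stood at 0.74 with control siRNA, below the fold threshold. Cfl2 changed by -0.06 with control siRNA (adjusted p = 0.803, limma) and by 0.84 with Ncoa4 siRNA (standard error 0.18, adjusted p = 0.00237, limma), also below it. Whether the response to DFO differed between the siRNAs was not tested for these genes, since that difference equals the difference between both knockdown effects that the rule had used.

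Ncoa4 itself was not called with DFO. It changed by 0.39 with control siRNA and by 0.43 with Ncoa4 siRNA (standard error 0.21, adjusted p = 0.136 and 0.119, limma). Lmna changed by -0.42 and -0.41 (standard error 0.07, adjusted p = 2.53e-04 and 4.05e-04, limma) and R3hdm4 by -0.56 (adjusted p = 0.00548, limma) and -0.19 (adjusted p = 0.317, limma), all within the fold threshold. Sox9 was higher after DFO by 0.67 and 0.69, also below it (standard error 0.12, adjusted p = 4.04e-04 and 4.85e-04, limma).

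Members with and without the heptamer in the 3′ UTR were set side by side for DFO. With control siRNA, 6 of 62 members with it were called higher (9.68%) and 7 lower (11.3%), and of the 107 without it 24 were called higher (22.4%) and 9 lower (8.41%). With Ncoa4 siRNA the numbers were 9 and 3 of 62, and 23 and 5 of 107. The median log2 fold changes were 0.17 and 0.22 with the heptamer and 0.20 and 0.25 without it, and the difference was not tested.

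**Figure D5:**
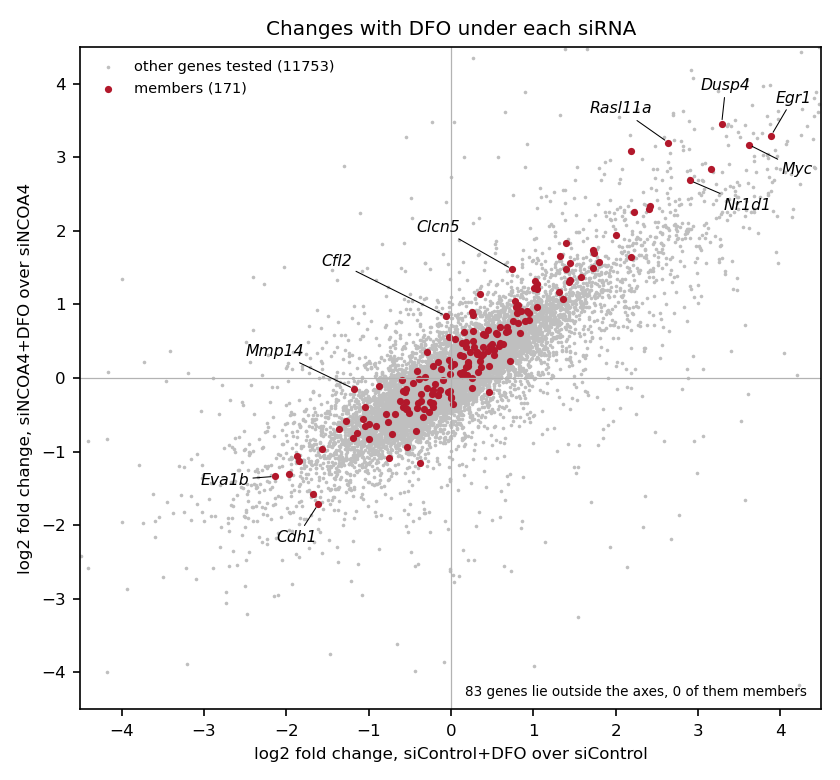
Log2 fold change with DFO under control siRNA (horizontal axis) and under Ncoa4 siRNA (vertical axis), on log2(FPKM + 0.1), for the 11924 genes tested, with the 171 members in red. Members lie on both sides of 0, from Eva1b at -2.14 and -1.34 to Egr1 at 3.89 and 3.29, and 83 other genes lie outside the axes.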

How the data were processed

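RNA-seq of 12 HT22 libraries was used, 3 in each of 4 groups taken from the sample labels. The authors deposited 1 FPKM value per gene and library, made from stranded total RNA libraries read as 75-bp pairs. The submitters' processing notes name Trimmomatic 0.33, FastQC, HISAT2 2.1.0, featureCounts, edgeR and the mouse build mm10, without the settings. Each table held 24347 gene entries, of which 4 that shared a name were left out. Gene symbols that had been turned into dates were restored. Of the 24343 genes, 6929 were listed at 0 in all libraries. FPKM hold no read counts, so depth could only be estimated relative to other libraries. No counting interval was given for expression, and low values are less precise. The exact binomial intervals on shares of genes cover counting error only.

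Members were found by the rule on the deposited FPKM. The members, gene lists and markers were chosen with earlier results of these data known. Changes were computed on log2(FPKM + 0.1), which understates those of low genes, for the 11924 genes that reached an FPKM of 0.5 in 3 or more libraries. Group means of all 12 libraries were estimated in 1 fit with limma (version 3.58.1, run in R 4.3.3), with moderation along a mean-variance trend (8 residual and 4.07 prior degrees of freedom) and Benjamini-Hochberg adjustment over all genes tested. On simulated data with 200 of 11924 genes changed between siControl+DFO and siControl, 98.5% were recovered, and 2 of 199 calls were false. These values describe that run alone. Recovery near the fold threshold or in genes of low FPKM was not tested, nor was the share of false calls in the HT22 libraries. No p-value is given for a knockdown effect of a member. With 3 libraries against 3, an exact two-sided permutation test cannot go below 0.1. All 171 members passed the filter on low values.

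The longest 3′ UTR and the longest coding sequence of each gene were taken from GENCODE M21 protein-coding transcripts on GRCm38, the assembly also called mm10, and were searched on the mRNA strand alone. Of the genes tested, 11438 were matched by symbol, 375 by an older symbol and 111 not at all, and 2 members had no 3′ UTR. Expected numbers came from the rate of each heptamer per base over all 3′ UTRs and the lengths of the members' 3′ UTRs. Heptamers in the 3′ UTR of at least 200 genes were ranked. The named members were Ncoa4, Cfl2, Mmp14 and R3hdm4, the 20 with the lowest larger ratio, those on a pathway list, the 3 on each side of the ratio limit, and the 3 largest rises and falls with DFO under each siRNA. Close paralogs of the leading genes were also named. Dusp6, Spry2, Etv5, Bhlhe40, Ndrg1, Hilpda, Foxo3, Arxes2, Ccny, Pcbp1, Pcbp2, Slc11a2, Tfrc, Scamp4, Sept5 and Fth1 were named after their values had been seen. So were Nr1d2 and Angptl4. Alternatives were other limits of the rule, other pseudocounts, filters and scalings, the replicate number as a block, other fits and leaving out each library. Python 3.11.15 (scipy 1.17.1, pandas 2.3.3, numpy 2.4.6) was used for sequence searches and matplotlib 3.10.9 for plots.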

Additional observations from a re-analysis of the deposited data

How the results depend on the processing

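The number of members depended on the ratio limit, as the limit itself sets how many genes pass. It was 32 at a limit of 0.5 and 355 at 0.75, and the median ratios of the genes so chosen were 0.405 and 0.424 at 0.5 and 0.635 and 0.641 at 0.75, at normal iron and with DFO. Under group medians, other expression minimums and other scalings it lay between 158 and 176, and with quantile scaling 139 of the 171 members were shared. Leaving out 1 library at a time gave 161 to 188 members, median ratios of 0.507 to 0.529 at normal iron and 0.559 to 0.571 with DFO, 44 to 46 members called with DFO under control siRNA and 36 to 42 under Ncoa4 siRNA. Without the fold threshold, an adjusted p below 0.05 alone called 109 and 111 members. GAATGCC was also first in rank in whole transcripts and in coding sequences, at 3.12 and 2.39 times the expected number, and AATGCC led the hexamers at 2.30 times. Calls of single named members with DFO changed in 8 instances, 6 lost and 2 gained, of which Apcdd1 with quantile scaling (-1.03) is not given above. No called direction turned in any alternative run. Relative depth, which spanned 1.52-fold, limits low genes most.

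The replicate numbers in the labels did not pair the samples. The deviations of same-numbered samples from their group means correlated at -0.127 to 0.116, and a sample correlated best with its own number in 9 of 36 cases. With the replicate number as a block, 46 and 40 members were called with DFO under control and Ncoa4 siRNA, as without it.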
